A study of Homo sapiens with 6 samples.

Results

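Notch signalling was followed through 10 genes, taken by gene name from a table of 58302 genes: the receptors NOTCH1, NOTCH2 and NOTCH3, the ligands JAG1, JAG2 and DLL1, the DNA-binding effector RBPJ, and the target genes HES1, HEY1 and HES4. The cells were MDA-MB-231-DR, a variant of the human line MDA-MB-231 (triple-negative breast cancer) that tolerates doxorubicin. RNA was sequenced from 3 control samples and from 3 samples treated with cyperotundone (CYT), a compound isolated from the sedge Cyperus rotundus. The resistant line was maintained in medium with a low concentration of doxorubicin, which both groups share. The CYT dose, the treatment time and the vehicle of these libraries are not given in the sources used here. The methods speak in general of independent experiments but do not say whether these replicates came from separate cultures, so the p-values measure the spread between these libraries, which may be technical. All results come from a single resistant line.

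Notch receptors are membrane proteins that are switched on by contact with a ligand on a neighbouring cell. Ligand binding and endocytosis expose the receptor to ADAM proteases and then to the gamma-secretase complex, which frees the intracellular domain. In the nucleus this domain joins RBPJ and a Mastermind-like co-activator (MAML) and switches on HES and HEY genes, which encode transcriptional repressors. RBPJ without the receptor domain recruits co-repressors to the same sites. In breast tissue and breast cancer the pathway is known for roles in progenitor cells and in tumour growth.

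The letters TGGGAA are the core of the sequence that RBPJ is known to bind. They were searched on both strands in the 250 bases before the transcription start of every RefSeq promoter entry (GRCh38.p14). Of 35116 entries, 20.8% held at least 1 match and 2.90% held 2 or more. The longer string GTGGGAA, which contains the core, was found in 5.43%. An entry was found for 8 of the 10 genes, all but DLL1 and HEY1. HES1, HES4 and 1 of the 5 entries of RBPJ held a match. The other 5 genes with an entry held none, which says only that these letters are not in this window. The promoters of HES1 and HES4 are shown because these are the Notch target genes for which an entry was found. They are chr3:194135898-194136147 on the plus strand and chr1:1000098-1000347 on the minus strand. Both are written 5′ to 3′ up to the base before the start, with each TGGGAA in capitals.
HES1: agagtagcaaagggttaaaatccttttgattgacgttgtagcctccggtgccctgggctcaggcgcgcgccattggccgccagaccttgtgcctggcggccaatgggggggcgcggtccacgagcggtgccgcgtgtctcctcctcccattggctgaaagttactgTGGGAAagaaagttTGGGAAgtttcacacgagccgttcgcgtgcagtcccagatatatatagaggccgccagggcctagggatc
HES4: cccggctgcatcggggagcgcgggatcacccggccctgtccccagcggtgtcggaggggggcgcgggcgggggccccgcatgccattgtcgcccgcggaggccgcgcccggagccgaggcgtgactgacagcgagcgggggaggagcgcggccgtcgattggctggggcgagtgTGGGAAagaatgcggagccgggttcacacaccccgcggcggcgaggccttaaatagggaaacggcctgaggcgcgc
HES1 held 2 matches, starting 84 and 70 bases before the start site, and HES4 held 1, starting 76 bases before it. The deposited loci begin farther upstream than these RefSeq starts. They take in the last 3 bases of the HES1 window and neither of its matches, and the last 75 bases of the HES4 window with 5 of the 6 bases of its match. A match is a description of the sequence and not evidence of binding in these cells.

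Total counts ran from 14050849 to 17770102 in control libraries and from 13056270 to 14106017 in CYT libraries. Levels are given in CPM, the count relative to the library size after scaling by the trimmed mean of M-values (TMM). A gene was called where the quasi-likelihood test of edgeR gave an adjusted p under 0.05, by the method of Benjamini and Hochberg over 15572 genes. Of the markers fixed for the line, VIM, CD44, EGFR and KRT18 were detected in every library, and their summed level was 2942 to 3229 CPM in control and 1231 to 1327 CPM in CYT libraries. VIM and EGFR were called lower. KRT18 was not (adjusted p = 0.0549, edgeR), but it was called lower with the replicate number as a block (adjusted p = 0.0193, edgeR). CD44 had 139 CPM in control and 122 CPM in CYT cells (adjusted p = 0.639, edgeR). Of the markers fixed as low in this line, ESR1 and PGR had at most 4 counts in a library, CDH1 had 0 in control and 2 to 16 in CYT libraries, and GATA3 had 62 to 93 counts in control and 33 to 46 in CYT libraries without passing the test (adjusted p = 0.163, edgeR). Fibroblast markers summed to 11.7 to 19.6 CPM in control and 2.78 to 4.37 CPM in CYT libraries. This sum was nearly all COL1A1, since COL1A2, DCN and LUM were at 0 in every control library and at 0 to 6 counts in CYT libraries. Leukocyte markers summed to 0.213 to 1.37 CPM in control and 4.09 to 5.12 CPM in CYT libraries, nearly all of it CD14, with 4 to 19 counts in control and 49 to 59 in CYT libraries. PTPRC and LYZ were at 0 in every control library and at 0 to 11 counts in CYT libraries. Whether these shifts bear on the Notch genes was not tested. In bulk RNA, fewer cells of a type and less RNA per cell cannot be told apart. Replicate 2 of the CYT group stood apart from CYT replicates 1 and 3, with correlations of log2 CPM of 0.905 and 0.904 against 0.970 between the others. Its values are given for each of the 10 Notch genes.

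Of the 10 Notch genes, all passed the filter on low counts and 3 were called. DLL1 and HEY1 were higher and JAG1 was lower in CYT cells. Over all genes tested, 28.6% were called, 15.7% as higher and 12.9% as lower, so the share of Notch genes called was close to that of genes in general. The log2 fold change was above 0 in 8 of the 10, against 7826 of the 15572 genes tested, with a median of 0.81 against 0.0064 over all genes. Levels of 6 of the 10 did not overlap between the groups, 5 higher (NOTCH2, DLL1, RBPJ, HES1, HEY1) and 1 lower (JAG1) with CYT, against 46.1% of all genes tested. With the replicate number as a block, NOTCH1, NOTCH2 and HES1 were also called, which makes 6 of 10 against 39.9% of all genes. No label says what libraries of the same number share. In deviations from the group means, only the replicate 2 libraries correlated most with their own number (0.458). Control replicate 1 correlated more with CYT replicate 3 (0.303) than with CYT replicate 1 (0.188). DLL1 passed the filter only through the CYT libraries, and a gene of that kind had to be higher there. Neither its call nor its direction is therefore separate support for these counts.

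**Figure D1:**
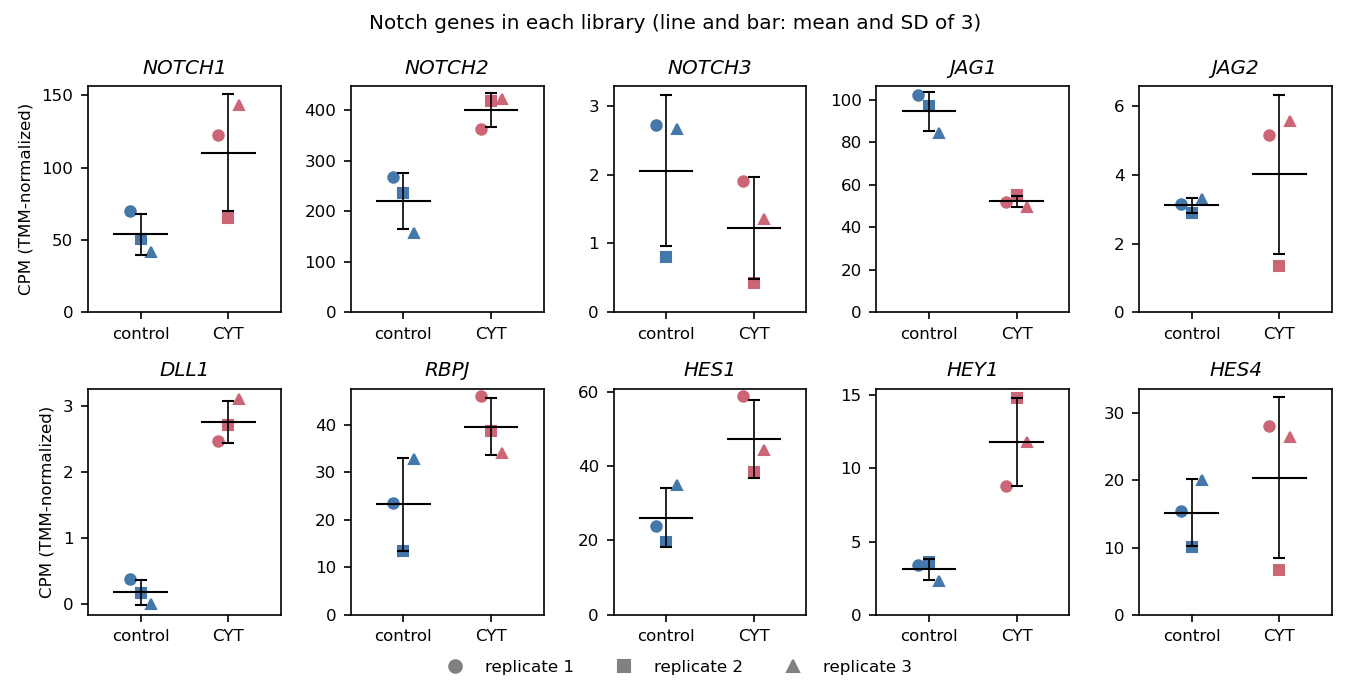
TMM-normalized CPM (vertical axes, linear) of the 10 Notch genes in each of 3 control (blue) and 3 CYT (red) libraries. The marker shape gives the replicate number, and the line and bar give the mean and SD. JAG1 in all 3 CYT libraries lies below all 3 control libraries, DLL1 and HEY1 lie above them, and CYT replicate 2 (square) is far below the other CYT libraries for NOTCH1, JAG2 and HES4.

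Among the ligands, JAG1 was lower and DLL1 was higher in CYT cells, while JAG2 was not called. JAG1 (chr20:10637684-10674107, minus strand, hg38), a Jagged-type ligand, had 102, 97.2 and 84.3 CPM in control replicates 1 to 3 and 51.8, 55.0 and 49.6 CPM in CYT replicates 1 to 3. All CYT values were below all control values, and the CYT values were close to one another. The mean was 94.5 ± 9.18 CPM (SD, n = 3) in control and 52.1 ± 2.73 CPM (SD, n = 3) in CYT cells. JAG1 fell by 0.86 on the log2 scale (SE 0.27, adjusted p = 0.0394, edgeR), which is less than the log2 fold change of 1 that the study required, and the blocked fit gave an adjusted p of 0.0187. The call was lost without control replicate 1, 2 or 3 (adjusted p 0.116, 0.0877 and 0.0863) and without CYT replicate 1 or 3 (0.118 and 0.124), with log2 changes of -0.96 to -0.80. It was kept without CYT replicate 2 (0.0180) and when the GC content and length of each gene's longest transcript were corrected for in the blocked fit (-0.76, adjusted p = 0.0123).

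DLL1 (chr6:170282206-170306565, minus strand), a Delta-like ligand, was near the detection limit in control cells. It had 6, 3 and 0 counts in control replicates 1 to 3 and 35, 38 and 39 counts in CYT replicates 1 to 3. The CYT libraries were nearly equal and lay above every control library. In CPM the level was 0.177 ± 0.187 in control and 2.76 ± 0.318 in CYT cells (SD, n = 3). The fit gave a log2 fold change of 3.86 (SE 0.74, adjusted p = 0.00482, edgeR), or 14.5-fold, which depends on few control counts and was 4.81 without control replicate 1. Because the gene passed the filter through CYT libraries alone, this p describes the fit and is not separate support. With no filter the values were 3.802 and an adjusted p of 0.00126, and with the GC and length correction and the block they were 4.23 and 0.00684. The summed counts were 9 in control and 112 in CYT libraries. Scaled by library size their ratio was 14.9, with an exact 95% interval of 7.57 to 33.4 that covers counting error only.

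The gene FAM120B lies across DLL1 on the opposite strand and was also higher in CYT cells, with a log2 fold change of 1.39 (SE 0.29, adjusted p = 0.00740, edgeR). Whether strand was used in counting is not given in the sources used here. The 3226 exonic bases of DLL1 and the exons of FAM120B share 0 bases in GENCODE release 29. Whether reads of FAM120B outside its annotated exons reached the DLL1 count was not tested.

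JAG2 (chr14:105140981-105168824, minus strand), the other Jagged-type ligand, had 51, 54 and 46 counts in control replicates 1 to 3. The CYT replicates had 73, 19 and 70 counts. CYT replicates 1 and 3 were above the control libraries and CYT replicate 2 was below them. The log2 fold change was 0.37 (SE 0.52, adjusted p = 0.634, edgeR), and 0.70 with the GC and length correction and the block (adjusted p = 0.186).

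The ligands not among the 10 genes were DLL3 and DLL4. DLL4, a Delta-like ligand best known from endothelial cells, had 15, 3 and 7 counts in control and 328, 106 and 192 counts in CYT replicates 1 to 3. Every CYT library was above every control library. The log2 fold change was 4.85 (SE 0.66, adjusted p = 0.00127, edgeR), or 5.53 without control replicate 1, and the ratio of summed counts was 30.0, with an exact 95% interval of 20.1 to 46.6 from counting alone. Only 1 control library was over the filter's level, so DLL4 passed through the CYT libraries and its p has the limit given for DLL1. With no filter the log2 fold change was 4.80 (adjusted p = 1.7e-05, edgeR). The endothelial markers PECAM1, VWF and CDH5 summed to 1.55 to 3.31 CPM in control and 1.83 to 3.50 CPM in CYT libraries, and none of the 3 was at 0 in all libraries of a group. This sum joins markers that went opposite ways. VWF was higher without overlap (mean 0.550 CPM in control, 1.46 CPM in CYT cells, adjusted p = 0.121, edgeR). PECAM1 was lower without overlap (1.76 and 0.897 CPM, adjusted p = 0.181, edgeR), and CDH5 overlapped. Whether these markers bear on DLL4 was not tested. DLL3 had 0, 14 and 4 counts in control and 15, 10 and 10 in CYT libraries, with a log2 fold change of 1.25 that did not pass (SE 0.86, adjusted p = 0.304, edgeR).

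Because levels of different genes can be compared only per length, the makeup of the ligand pool was calculated from the deposited FPKM. JAG1 made up 94.2% ± 0.0777 (SD, n = 3) of the summed ligand FPKM in control and 55.0% ± 11.3 in CYT cells. DLL4 made up 1.02% ± 0.687 in control and 29.6% ± 10.98 in CYT cells, and DLL1 made up 0.497% ± 0.514 and 8.70% ± 1.87. For JAG1, DLL1, DLL3 and DLL4 the shares did not overlap between the groups (exact permutation test, two-sided, p = 0.1 for each, the smallest that 3 against 3 allows). The share of JAG2 was 3.32% in control and 4.24% in CYT cells (exact permutation p = 0.6). The summed FPKM of the 5 ligands was 8.94 ± 0.915 in control and 8.73 ± 1.27 in CYT cells (exact permutation p = 0.9). DLL1, DLL3 and DLL4 passed the filter on low counts through the CYT libraries, and a p of 0.1 is above the threshold, so these shares are a description of the 6 libraries.

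**Figure D2:**
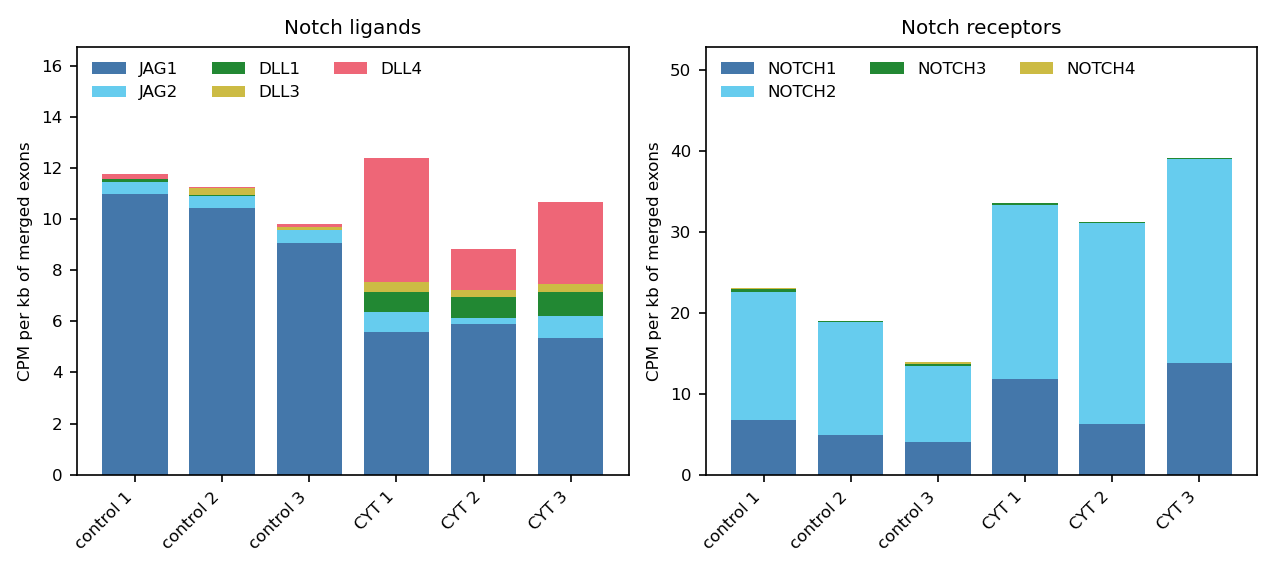
Stacked levels of the 5 Notch ligands (left) and 4 Notch receptors (right) in each library, in TMM-normalized CPM per kilobase of merged exons, on linear axes from 0. On this scale JAG1 makes up 92.8% of the ligands in control and 54.0% in CYT libraries, with DLL4 filling most of the difference at 29.05%. The receptor stacks are taller in all 3 CYT libraries. NOTCH1 makes up 25.6 to 29.1% of the receptors in control and 20.1 to 35.4% in CYT libraries, with means of 27.9% and 30.2%.

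Of the 3 receptors tested, edgeR without the block called 0, though NOTCH1 and NOTCH2 had an unadjusted p under 0.05 and DESeq2 called both. Over all genes tested, 6374 of 15572 had an unadjusted p under 0.05 by edgeR, and DESeq2 called 33.9%. NOTCH2 (chr1:119911553-120069626, minus strand) had the highest FPKM of the receptors in every library. It had 267, 236 and 158 CPM in control replicates 1 to 3 and 363, 418 and 423 CPM in CYT replicates 1 to 3. Every CYT value was above every control value, and control replicate 3 was the lowest. The log2 fold change was 0.87 (SE 0.29), with an adjusted p of 0.0513 by edgeR and 0.0277 with the replicate block. Leaving out a library gave an adjusted p of 0.0437 without CYT replicate 2 and of 0.0713 to 0.208 in the other 5 fits, with a log2 fold change of 0.65 without control replicate 3. With the GC and length correction and the block edgeR gave 0.99 (adjusted p = 0.0153). The gene copy NOTCH2NLA, whose reads can be confused with those of NOTCH2, had 308, 271 and 181 counts in control and 233, 123 and 126 counts in CYT libraries, against 2195 to 5874 counts for NOTCH2, and its log2 fold change of -0.40 did not pass the test (SE 0.36, adjusted p = 0.429, edgeR). How such reads were assigned is not given in the sources used here.

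NOTCH1 (chr9:136494444-136545862, minus strand), the receptor with activating mutations in T-cell leukaemia, had 69.7, 50.4 and 41.8 CPM in control replicates 1 to 3 and 122, 65.2 and 144 CPM in CYT replicates 1 to 3. CYT replicate 2 lay below control replicate 1, so the groups overlapped. By edgeR the log2 fold change was 1.03 (SE 0.37, adjusted p = 0.0621, edgeR). NOTCH1 was called by edgeR with the replicate block (0.98, adjusted p = 0.0327) and without CYT replicate 2 (1.30, adjusted p = 0.00616), but not without any other library (0.0788 to 0.218). With the GC and length correction and the block, edgeR gave 1.53 (adjusted p = 0.00214).

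NOTCH3 (chr19:15159038-15200981, minus strand), a receptor known from vascular smooth muscle, was at low counts, with 44, 15 and 37 in control and 27, 6 and 17 in CYT replicates 1 to 3. Replicate 2 was the lowest library of each group. NOTCH3 was not called, with a log2 fold change of -0.74 (SE 0.66, adjusted p = 0.431, edgeR), which was -0.28 with the GC and length correction and the block (adjusted p = 0.668). NOTCH4, the remaining receptor and not among the 10 genes, had 31, 0 and 24 counts in control and 0 in all 3 CYT libraries, and did not pass the filter.

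Summed over the 4 receptors, FPKM was 16.6 ± 3.70 in control and 31.3 ± 1.79 in CYT cells (SD, n = 3), with no overlap between the groups (exact permutation p = 0.1). NOTCH2 made up 67.9% ± 3.36 of the receptor FPKM in control and 67.0% ± 9.34 in CYT cells, and NOTCH1 made up 30.3% ± 2.11 and 32.6% ± 9.15 (exact permutation p = 1 and 0.6). CYT replicate 2 set the wider spread of the CYT group, with a NOTCH1 share of 22.0% against 37.8% and 38.0% in CYT replicates 1 and 3. The direction of these shares depended on single libraries. The difference in the NOTCH1 share was 2.33 percentage points, but -0.24 without CYT replicate 1, -0.37 without CYT replicate 3 and 7.62 without CYT replicate 2. The difference in the NOTCH2 share was -0.86 percentage points and turned positive without control replicate 2 (1.05), CYT replicate 1 (1.83) or CYT replicate 3 (1.84), and was -6.26 without CYT replicate 2.

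RBPJ (chr4:26163455-26435131, plus strand), the DNA-binding protein through which Notch acts on its targets, was not called. It had 378, 252 and 457 counts in control and 651, 542 and 429 counts in CYT replicates 1 to 3. In CPM it was 23.2 ± 9.72 in control and 39.5 ± 5.97 in CYT cells (SD, n = 3). The scaled levels did not overlap, but in FPKM, which lacks the TMM factor, control replicate 3 (1.66) was just above CYT replicate 3 (1.63). The log2 fold change was 0.77 (SE 0.37), with an adjusted p of 0.145 by edgeR and 0.0577 with the block. With the GC and length correction and the block, RBPJ was called by edgeR (log2 fold change 0.91, adjusted p = 0.0241).

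Among the target genes, HEY1 was higher in CYT cells, HES1 was called in some fits only, and HES4 was called in none. HEY1 (chr8:79764010-79767863, minus strand), a repressor of the hairy/enhancer-of-split family with YRPW motif, had 3.41, 3.62 and 2.30 CPM in control and 8.82, 14.8 and 11.8 CPM in CYT replicates 1 to 3. Every CYT library was above every control library. The level was 3.11 ± 0.709 CPM in control and 11.8 ± 2.99 CPM in CYT cells (SD, n = 3). HEY1 rose by 1.92 on the log2 scale (SE 0.37, adjusted p = 0.00512, edgeR), a fitted 3.77-fold increase. With the GC and length correction and the block edgeR gave 1.72 (adjusted p = 0.00556). HEY1 was called in all 16 alternatives, including the 6 that each dropped a library.

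HES1 (chr3:194136145-194138732, plus strand), the best known Notch target and the gene with 2 TGGGAA matches in the promoter shown above, had 23.9, 19.6 and 34.9 CPM in control and 58.8, 38.4 and 44.4 CPM in CYT replicates 1 to 3. The lowest CYT value, in replicate 2, was just above the highest control value, in replicate 3. HES1 had a log2 fold change of 0.85 (SE 0.33, adjusted p = 0.0816, edgeR). The gene was called by edgeR with the replicate block (0.87, adjusted p = 0.0296) and without CYT replicate 2 (0.98, adjusted p = 0.0331), but not without any other library (0.0878 to 0.256). With the GC and length correction and the block, edgeR gave 0.58 and HES1 was not called (adjusted p = 0.0838).

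HES4 (chr1:998962-1000172, minus strand), a HES relative and the gene with 1 match in its promoter, had 249, 190 and 279 counts in control and 399, 93 and 332 counts in CYT replicates 1 to 3. CYT replicates 1 and 3 were above every control library and CYT replicate 2 was below every one. The log2 fold change was 0.42 (SE 0.52, adjusted p = 0.572, edgeR). With the GC and length correction and the block edgeR gave 0.51 (adjusted p = 0.0945).

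**Figure D3:**
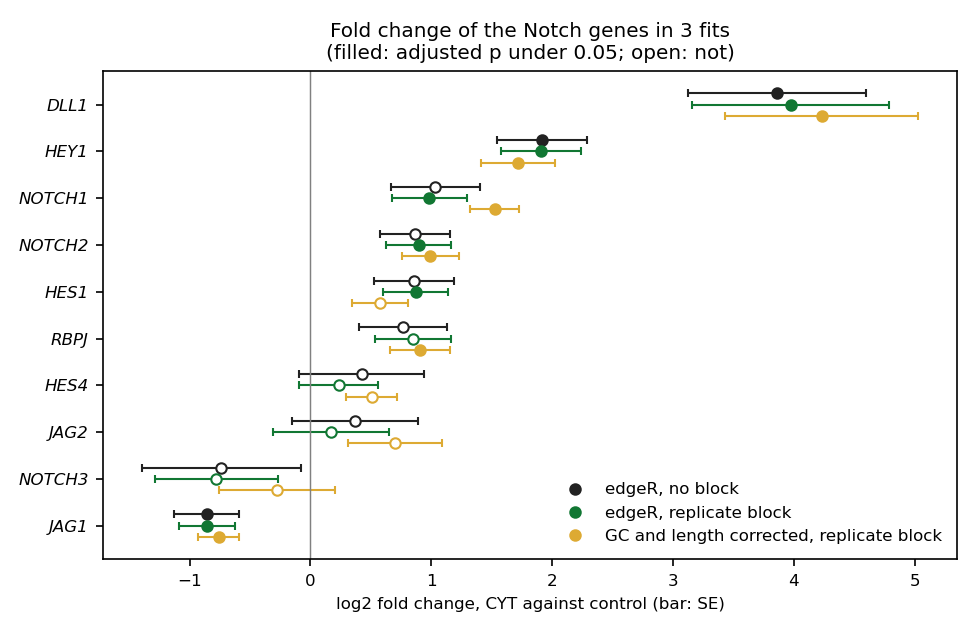
Log2 fold change of CYT against control (horizontal axis) for the 10 Notch genes in 3 fits, with bars for the SE; filled points have an adjusted p under 0.05. DLL1, HEY1 and JAG1 are filled in all 3 fits, NOTCH1 and NOTCH2 in both blocked fits, HES1 only in the block without GC correction, RBPJ only in the block with it, and HES4, JAG2 and NOTCH3 in none.

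The spread within the CYT group moved with base composition. The deviation of each gene in CYT replicate 2 from its group mean had a Spearman correlation of -0.75 with GC content across 15542 genes, against 0.55 and 0.66 in CYT replicates 1 and 3. For control replicates 1 to 3 the values were 0.50, -0.57 and 0.20. Genes share their library here, so these values are descriptions. Among the Notch genes, HES4 (GC content of the longest transcript 73.9%) was 2.04 lower on the log2 scale in CYT replicate 2 than in the mean of CYT replicates 1 and 3. In the same comparison JAG2 (64.0% GC) had a log2 ratio of -1.99, NOTCH3 (63.1%) of -1.93 and NOTCH1 (62.9%) of -1.03. DLL1, at 58.3% GC, was nearly level at -0.041. The genes of lower GC content stayed closer to the other replicates, with -0.42 for HES1 (49.9%), 0.12 for JAG1 (49.6%), 0.090 for NOTCH2 (49.4%), 0.53 for HEY1 (47.3%) and -0.052 for RBPJ (38.0%). Over the 10 genes, Pearson's r was -0.83 and Spearman's rho -0.84, given as a description of 1 library. In control replicate 2 they were -0.21 and -0.37. The part of GC content in the fold changes was not tested beyond the corrected fits, which are given for each of the 10 genes.

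**Figure D4:**
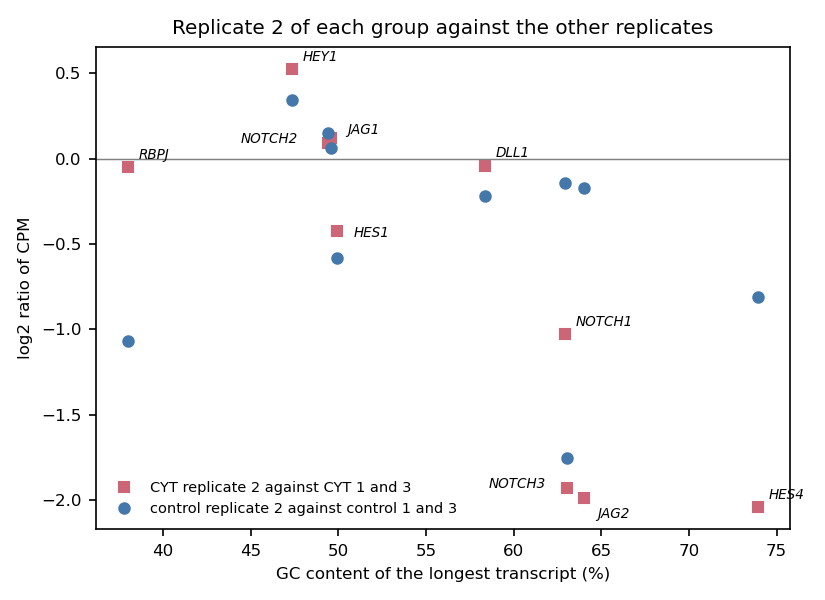
Log2 ratio of CPM in replicate 2 to the mean of replicates 1 and 3 of the same group (vertical axis) against the GC content of the longest transcript in percent (horizontal axis), for the 10 Notch genes. In CYT (red squares, named) the 4 genes of 62.9% GC or more lie at -1.03 or below and the other 6 lie between -0.42 and 0.53. Blue circles give the same ratio for control replicate 2.

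On a scale per kilobase of merged exons, the members spanned a wide range of levels. In control cells HES4 (13.6 CPM per kb), NOTCH2 (13.1), HES1 (12.7) and JAG1 (10.2) were at the top, and each overlapped the next over the 3 libraries. NOTCH1 (5.20), RBPJ (2.51), HEY1 (0.962) and JAG2 (0.487) followed without overlap between neighbours. NOTCH3 (0.220) and DLL1 (0.0549) were lowest and overlapped. In CYT cells the order began with NOTCH2 (23.9), HES1 (22.9), HES4 (18.2) and NOTCH1 (10.6), of which each overlapped the next. JAG1 (5.61) had dropped below NOTCH1 with no overlap, whereas it lay above NOTCH1 with no overlap in control cells. RBPJ (4.27) and HEY1 (3.65) overlapped, as did DLL1 (0.855) and JAG2 (0.629), and NOTCH3 (0.131) was last.

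A list of 62 other genes of the pathway was examined in the same fit. Of these, 52 passed the filter and 15 were called, 7 as higher and 8 as lower in CYT cells, beside the 28.6% called over all genes. With the block 9 were higher and 12 lower, beside 39.9% of all genes. The block added FURIN and TLE3 as higher and RFNG, DTX2, KAT2A and NCOR1 as lower. The median log2 fold change of the 52 was -0.13, against 0.81 for the 10 genes above. The counts depended on single libraries. They were 2 higher and 3 lower without control replicate 1 (18.3% of all genes called), the same without control replicate 3 (17.6%), and 4 and 4 without CYT replicate 3 (19.8%). Without CYT replicate 2 they were 9 and 11 (35.6%). The count thus moved in the same direction as that of all genes. MAML3 and CCND1 kept their calls in all 6 leave-one-out fits. So did DLL4 and MAML2, but these passed the filter only through the group in which they are high, which fixes their direction. Each of the other 11 lost its call in 2 or more of the 6 fits.

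Among the genes for receptor cleavage, NCSTN was higher and PSEN2 was lower in CYT cells. NCSTN encodes nicastrin, the large glycoprotein subunit of gamma-secretase, and PSEN2 encodes a catalytic subunit. NCSTN had 136, 93.3 and 113 CPM in control and 258, 172 and 276 CPM in CYT replicates 1 to 3 (log2 fold change 1.05, SE 0.31, adjusted p = 0.0301, edgeR). PSEN2 had 31.1, 20.1 and 24.6 CPM in control and 14.5, 7.76 and 9.61 CPM in CYT replicates (log2 fold change -1.25, SE 0.35, adjusted p = 0.0266, edgeR). Neither gene overlapped between the groups. NCSTN kept its call only without CYT replicate 2 (adjusted p 0.0573 to 0.112 in the other 5 leave-one-out fits). PSEN2 lost it without control replicate 1 (0.0945), control replicate 3 (0.0707) or CYT replicate 3 (0.0918).

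Of the 4 tested genes for receptor glycosylation, POGLUT1, which adds O-glucose to the receptor's EGF repeats, was higher (log2 fold change 1.47, adjusted p = 0.0313, edgeR). Among 9 tested genes for endocytosis and ubiquitin ligases, MIB1 (1.46, adjusted p = 0.0477) and MIB2 (1.23, adjusted p = 0.0405, edgeR), ligases that act on the ligand in the signal-sending cell, were higher. NEURL1B, a further ligase for Notch ligands, was lower (-1.47, adjusted p = 0.0239, edgeR). The MIB1 and MIB2 levels in CYT replicate 2 went opposite ways from the other CYT libraries. MIB1 had 109 CPM there against 32.6 and 42.1 CPM, and MIB2 had 54.5 CPM against 121 and 125 CPM. Without that library the log2 fold change of MIB1 was 0.73 and its call was lost (adjusted p = 0.110, edgeR). MIB1 was also lost without control replicate 1 (0.148), control replicate 3 (0.164) or CYT replicate 3 (0.0559). MIB2 kept its call only without CYT replicate 2 (0.00317), with 0.0598 to 0.135 in the other 5 fits. The longest transcripts of MIB1 and MIB2 have 37.7% and 68.4% GC. With the GC and length correction and the block, edgeR called both, as it did 44.8% of all genes. It gave 1.37 for MIB1 (adjusted p = 0.00297) and 1.79 for MIB2 (adjusted p = 0.00147). POGLUT1 was lost without control replicate 1 (0.116), 2 (0.0546) or 3 (0.0790) and without CYT replicate 2 (0.0600), and NEURL1B without control replicate 1 (0.0788), control replicate 3 (0.0542) or CYT replicate 3 (0.0571).

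In the nucleus, MAML2 and MAML3, but not MAML1, passed the test among the Mastermind-like co-activators, and both were lower in CYT cells. MAML2 had 65, 100 and 54 counts in control and 15, 6 and 6 counts in CYT replicates 1 to 3. MAML3 had 129, 90 and 88 counts in control and 23, 18 and 30 counts in CYT replicates 1 to 3. Neither gene overlapped between the groups. MAML2 fell by 2.73 (SE 0.50, adjusted p = 0.00390) and MAML3 by 1.85 (SE 0.42, adjusted p = 0.0105) on the log2 scale by edgeR. MAML1, the more abundant member at 67.8 to 91.4 CPM, was not called. Of the other co-activator genes, 0 were called by edgeR without the block and KAT2A was called lower with it. MAML2 passed the filter through the control libraries, as 1 CYT library was over its level, and with no filter it had an adjusted p of 0.00133.

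Among the co-repressor genes, CTBP1 was lower and KDM5A was higher. CTBP1, a general co-repressor, had 156, 125 and 152 CPM in control and 74.0, 30.7 and 70.5 CPM in CYT replicates 1 to 3, with CYT replicate 2 the lowest. Its values did not overlap between the groups, with a log2 fold change of -1.31 (SE 0.37, adjusted p = 0.0264, edgeR). KDM5A, a histone H3 lysine demethylase recruited with RBPJ, had a log2 fold change of 1.14 (SE 0.29, adjusted p = 0.0178, edgeR). CTBP1 lost its call without control replicate 1 (0.0752), control replicate 3 (0.0797) or CYT replicate 3 (0.0562). KDM5A lost it without control replicate 1 (0.0775), control replicate 3 (0.0795) or CYT replicate 1 (0.0521).

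Of the 8 tested targets and HES or HEY relatives outside the 10 genes, 2 were lower and 0 were higher by edgeR, which as a share is near the 28.6% of all genes called. HEYL, a close relative of HEY1, had 187, 181 and 175 counts in control and 75, 15 and 47 counts in CYT replicates 1 to 3. All CYT values were lower, and HEYL fell by 1.74 on the log2 scale (SE 0.52, adjusted p = 0.0319, edgeR). The call was lost without control replicate 1 (0.0753), 2 (0.0501) or 3 (0.0877) and without CYT replicate 3 (0.0824). CCND1, the gene for cyclin D1 and a target of several pathways besides Notch, had 466, 499 and 382 CPM in control and 158, 190 and 147 CPM in CYT replicates 1 to 3. CCND1 fell by 1.44 (SE 0.27, adjusted p = 0.00459, edgeR). HEY2 had 29, 15 and 16 counts in control and 37, 36 and 55 counts in CYT libraries and did not pass the test (log2 fold change 1.34, SE 0.48, unadjusted p = 0.0201, adjusted p = 0.0641, edgeR). HEY2 was called in 5 of 15 alternatives, among them DESeq2 (adjusted p = 0.0437) and edgeR without CYT replicate 2 (0.0423), but not with the block (0.0561) or in the other 5 leave-one-out fits (0.0713 to 0.199). NRARP, a target that feeds back on the receptor complex, had 127, 74 and 102 counts in control and 60, 39 and 58 counts in CYT libraries and did not pass either (-0.72, SE 0.41, adjusted p = 0.217, edgeR). HES5 was at 0 counts in all 6 libraries.

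**Figure D5:**
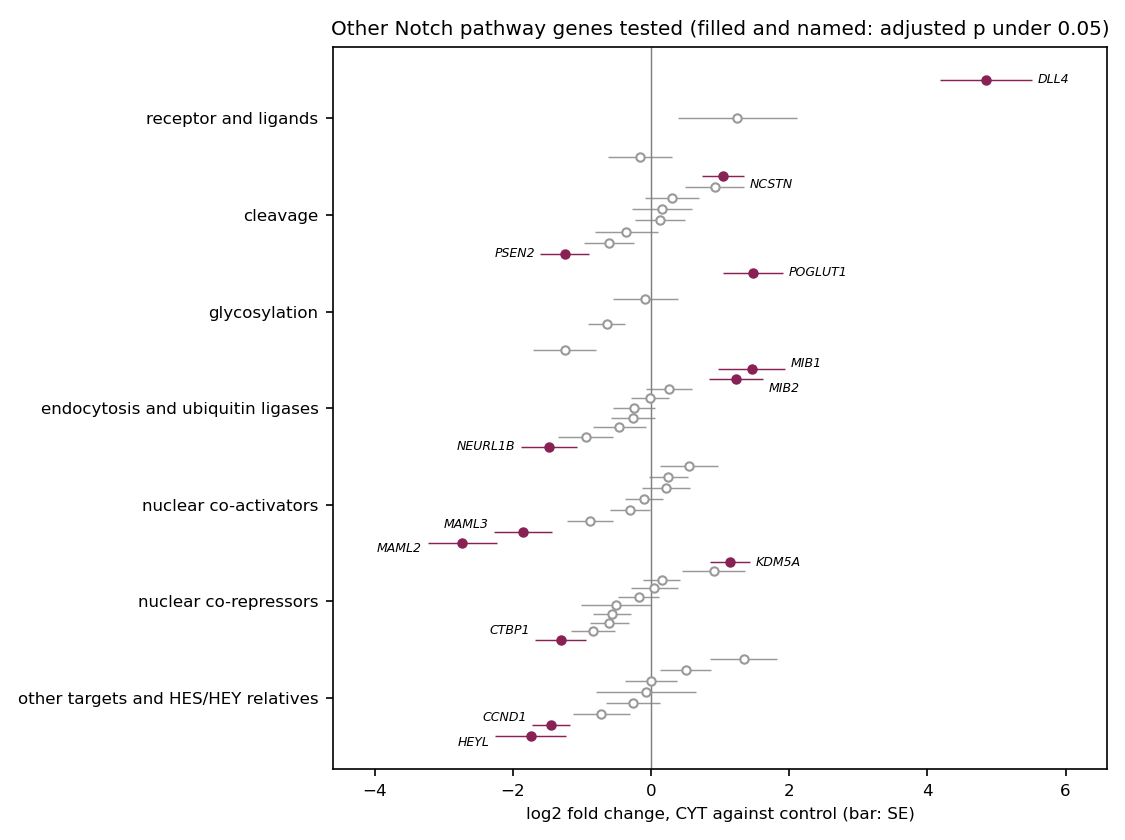
Log2 fold change of CYT against control (horizontal axis, bars SE) for 50 other Notch pathway genes that passed the filter, grouped by role. Filled and named points have an adjusted p under 0.05, with 6 to the right of 0 and 7 to the left, and DLL4 and MAML2 lie farthest to either side.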

How the data were processed

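RNA of 3 control and 3 CYT-treated MDA-MB-231-DR samples was sequenced, and groups and replicate numbers were taken from the sample titles. Per the methods, the authors aligned filtered reads with Hisat2 and deposited 1 table of 58302 genes with the raw read count of each gene in each library. FPKM values were deposited by the authors in the same table and are credited to Stringtie. The submitters' notes name the build hg38 and FastQC 0.12.1. The counting program, its use of strand and its annotation are not given in the sources used here. Since the FPKM length counts overlapping exons again for most genes, levels were also compared in CPM per kb of merged exons (GENCODE release 29).

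Counts were tested with edgeR 4.0.16 in R 4.3.3 (TMM, filterByExpr with a minimum count of 10, glmQLFit and glmQLFTest, no block) on all 15572 genes that passed, with Benjamini-Hochberg adjustment. The SE came from the fold change and the F statistic. Shares were compared with exact permutation tests. The 10 genes, the 62 pathway genes and the markers were chosen with earlier results of these data known. The text names the 10 genes, pathway genes with an adjusted p under 0.05, NOTCH4, DLL3, DLL4, HES5, HEY2, HEYL and NRARP, genes overlapping or copying a member, and the 3 profiles most like DLL1 and JAG1. MAML1 and the 6 pathway genes that the block added were named after their values were seen. Of the pathway genes tested, 2 are not reported here.

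Deviations of same-numbered libraries from their group means correlated across genes at 0.188 (replicate 1), 0.458 (replicate 2) and 0.124 (replicate 3). Each was over 0.1, so the numbers were taken as pairs, although control 1 with CYT 3 reached 0.303 and control 3 with CYT 1 0.201, and no label says what a pair shares. Alternatives were upper-quartile and RLE scaling, DESeq2 1.42.0, no filter, a minimum mean of 5 CPM, limma 3.58.1 on log2(FPKM + 1) and log2(FPKM + 0.1), the replicate block, raw-count shares and leaving out each library. The correction for GC content and length and the merged-exon scale were added after the data were seen. The tests were tried on simulated counts with known changes.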

Additional observations from a re-analysis of the deposited data

How the results depend on the processing

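No Notch gene changed direction in any alternative fit. HEY1 was called in all 16. DLL1 was called in the 15 that tested it, but passed the filter only through CYT libraries. JAG1 was called in 8 of 16, NOTCH2 in 10, NOTCH1 in 7, HES1 in 4 and RBPJ in 1, and HES4, JAG2 and NOTCH3 in none. Against 2 genes called higher, 5 were called with upper-quartile scaling (28.9% of all genes called in either direction), 5 with DESeq2 (33.9%), 5 with the replicate block (39.9%), 4 with the GC content and length correction (46.0%) and 5 with that correction and the block (44.8%), against 28.6%. Of all genes, 15.7% were called higher in the main fit and 3120 of 15572 with the replicate block. Against 1 called lower, 0 were called with upper-quartile scaling, with no filter and with a minimum mean of 5 CPM, where JAG1 had an adjusted p of 0.0749, 0.0577 and 0.0639 and 4503 of 15572, 5130 of 32060 and 2853 of 11410 genes in all were called. DLL1, JAG2 and NOTCH3 were not tested under that minimum. Leaving out a library gave 2 to 5 called higher and 0 to 1 called lower. Among the other pathway genes it gave 2 to 9 higher and 3 to 11 lower, and the GC content and length correction gave 15 lower, or 14 with the block. In these fits the share of all genes called moved as well, from 17.6% to 35.6% over the leave-one-out fits. The causes were not tested. The median over all genes moved to 0.16 with upper-quartile scaling and to 0.41 with no filter, so fold changes in those fits are relative to it. The block changed the call of NOTCH1, NOTCH2 and HES1 and of no other of the 10 genes.

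In raw counts, not per length, the share of JAG1 among ligands changed by -25.6 percentage points, that of DLL1 by 3.54 and that of DLL4 by 19.3. Leaving out a library gave differences of -0.37 to 7.62 for the NOTCH1 share, of -6.26 to 1.84 for the NOTCH2 share and of -0.016 to 2.15 for the JAG2 share. At the depth of these libraries NOTCH3, JAG2 and the control level of DLL1 rest on 54 counts or fewer per control library.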

Other observations

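The FPKM scale lowers some Notch genes against others. For 92.1% of 10158 genes compared (50 counts or more in each library, tolerance 1 bp), the FPKM length was the sum of distinct exon records of GENCODE release 29, in which overlapping exons count again. The length behind the deposited FPKM was 3.10 times the merged exonic length for HES4, 2.87 times for HEY1 and 2.12 times for RBPJ, but 1.02 times for NOTCH1, with a median of 1.57 over those genes. HES4 was the highest of the 10 genes in control cells per kb of merged exons (13.6 CPM per kb) but ranked 5 by FPKM (4.32). Fold changes of a gene are not touched by its length. As a description over 6 libraries and with no test, the profile of log2(CPM + 1) most like DLL1 among genes with a mean of at least 5 CPM was that of GOLM1 (Pearson's r 0.999), then PRDX6 (0.997) and AL133215.2 (0.997). The profiles most like JAG1 were those of TTC5 (0.999), ZHX3 (0.996) and MCM3 (0.996).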
